A study of Drosophila melanogaster with 33 samples.

Results

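The regions described here were distal intergenic binding sites of the transcription factor Lola-I that were called in only 1 of 2 replicate libraries. They were chosen by 3 criteria applied to the replicate 2 peak list. The peak was overlapped by no replicate 1 peak, its summit lay more than 1000 bp from every annotated transcription start site (TSS), and the summit lay outside all annotated genes. Of the 9674 peaks of replicate 2, 9665 lay on the 7 chromosome arms and 656 of these (6.79%) met the criteria. The 656 members were 8% of the 8200 arm peaks without a replicate 1 partner. Of those 8200 peaks, 2350 lay more than 1000 bp from a TSS, and 1694 of the 2350 were inside genes.

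Both libraries came from wild-type OregonR embryos of Drosophila melanogaster aged 14 to 17 h, immunoprecipitated with a custom rabbit polyclonal antibody against Lola-I. They were 2 of the 33 samples of a series that used ChIP-seq, which sequences the DNA fragments an antibody pulls down with its target protein. The other 31 samples were not analysed here. The replicate 1 list held 1759 peaks and was therefore much the shorter, and peak lists give no read counts, so the depth behind either list is unknown. Absence from replicate 1 means only that no peak was called there, and whether depth had a part in it was not tested. All members came from 1 library of whole embryos, so their values have no replicate check and no cell type can be assigned to them.

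Lola-I is one of many proteins made from the gene lola, each with a shared BTB domain, through which such proteins pair, and most with their own zinc fingers, which bind DNA. In flies, sequence between genes holds enhancers, silencers such as Polycomb response elements, and insulators, and developmental regulators often sit beside long stretches of it. GAF, the product of Trl, is another BTB protein and binds GAGAG, and the insulator protein CTCF binds a core that holds GATGGCG.

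Of the 10 members with the highest fold enrichment, 6 are shown here as examples of sequence with AAAGCT, with GAGAG, with GATGGCG or with none of these words next to the summit. These 6 were picked to show such kinds of sequence and do not give the share of members that hold a word. Each line gives the gene with the nearest TSS and the summit with 50 bp on either side, 5′ to 3′ on the plus strand, from RefSeq Release 6 in dm6 coordinates. Capitals mark the word AAAGCT, the GAF word GAGAG and the CTCF-type word GATGGCG on either strand. GATGGCG was added after the sequences had been seen. The 36.6-fold peak between CG42758 and HGTX also held none of these words within 50 bp of its summit and is not shown. Among all members, 42.5% held neither AAAGCT nor GAGAG within 100 bp of the summit. AAAGCT was the word most over-represented at promoter peaks found in both replicates in earlier results of these libraries.
lncRNA:CR43437 (chr4:424745-424845): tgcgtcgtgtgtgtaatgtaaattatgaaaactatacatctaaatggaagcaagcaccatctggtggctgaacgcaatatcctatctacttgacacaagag
Cyp318a1 (chrX:12035362-12035462): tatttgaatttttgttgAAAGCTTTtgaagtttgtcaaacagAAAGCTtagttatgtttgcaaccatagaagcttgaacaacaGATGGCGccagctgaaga
Act88F (chr3R:15438173-15438273): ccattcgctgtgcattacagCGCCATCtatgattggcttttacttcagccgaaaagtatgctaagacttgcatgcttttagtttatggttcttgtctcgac
CG4982 (chr3L:16300309-16300409): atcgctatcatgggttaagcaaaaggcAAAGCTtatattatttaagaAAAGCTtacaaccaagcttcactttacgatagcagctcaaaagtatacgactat
CG6431 (chr2L:10721662-10721762): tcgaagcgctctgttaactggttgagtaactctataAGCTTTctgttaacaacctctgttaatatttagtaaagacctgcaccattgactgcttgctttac
toe (chr3L:12434547-12434647): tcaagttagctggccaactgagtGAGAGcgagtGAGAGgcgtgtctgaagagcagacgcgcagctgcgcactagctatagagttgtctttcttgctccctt

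The sequence next to Cyp318a1, a cytochrome P450 gene, held 3 matches to AAAGCT, a pair of which overlap, and 1 to GATGGCG. The region upstream of CG4982 held AAAGCT 2 times, that upstream of CG6431 held it 1 time, and that upstream of toe, a Pax-type transcription factor gene, held GAGAG 2 times. The region upstream of Act88F, the actin gene of the flight muscle, held GATGGCG. The member with the highest fold enrichment of all, beside lncRNA:CR43437 on chromosome 4, held none of the 3 words in the stretch shown. A match is a run of letters and not a shown binding site.

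The members were mostly weak peaks. Fold enrichment, the deposited ratio of signal at the peak to the caller's background estimate, ranged from 1.95 to 55.6 with a median of 5.11 and quartiles of 3.64 and 8.90. It reached 10 in 127 members (19.4%). By deposited score, 275 members (41.9%) stood in the higher-scoring 50% of the whole replicate 2 list and 10 (1.52%) in the top 10%. The best-ranked member was number 577 in the list. The median width was 232.5 bp, from 135 to 1569 bp.

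Other classes of replicate 2 peak give the scale of these values. Fold enrichment had a median of 4.34 in the 1542 intronic peaks of replicate 2 alone that lay more than 1000 bp from a TSS. It had a median of 5.03 in the 3879 promoter peaks of replicate 2 alone, whose summits lay within 200 bp of a TSS. In the 154 distal intergenic peaks that replicate 1 also held, the median was 42.3 and the quartiles were 23.8 and 113. Those 154 were 19.0% of all 810 distal intergenic peaks of replicate 2 (95% Wilson interval 16.5 to 21.9%). Since presence in replicate 1 chose the members, these values describe the choice and were not tested. The plot of cumulative fold enrichment shows that the members lay with the other peaks of replicate 2 alone and far to the left of the shared intergenic peaks.

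**Figure D1:**
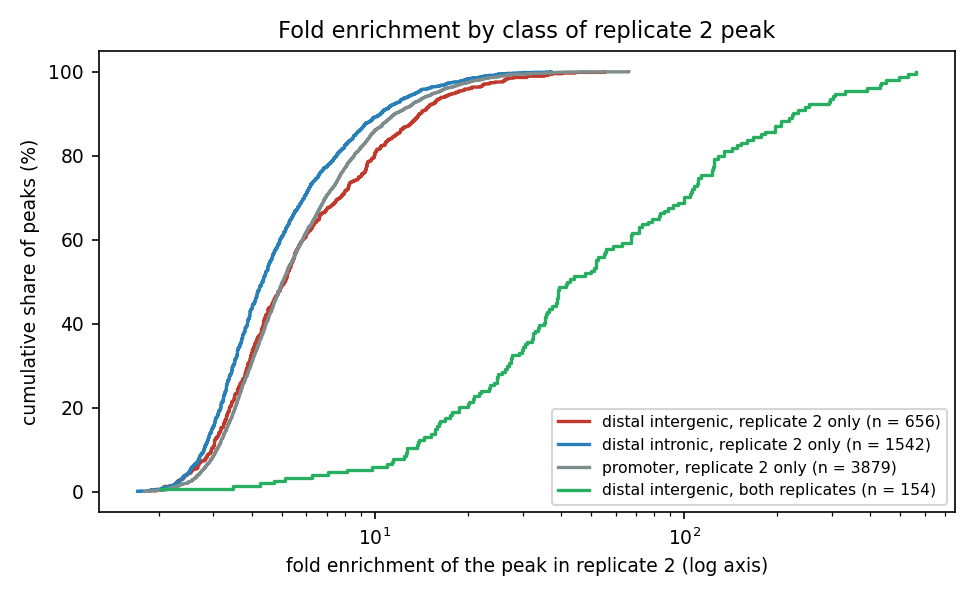
Cumulative share of peaks (vertical axis, %) against fold enrichment in replicate 2 (horizontal log axis) for 4 classes of peak. The 656 members, with a median of 5.11, run close to the promoter peaks of replicate 2 alone, with a median of 5.03, while the 154 distal intergenic peaks of both replicates have a median of 42.3.

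The 10 members with the highest fold enrichment stood next to genes of varied kind. The 55.6-fold peak lay 1272 bp upstream of lncRNA:CR43437 on the small chromosome 4, in an interval of 25301 bp that held all 4 members of that chromosome. The 44.5-fold peak on X lay 129 bp past the end of Cyp318a1, with Ten-a, a teneurin cell surface protein gene, on the far side of the interval. The 40.4-fold peak lay between toe and eyg, neighbouring Pax-type genes on 3L, 1929 bp upstream of toe and 708 bp from a weaker member. The peak near Act88F (37.4-fold, 3R) was 1746 bp upstream of its TSS, with another member 340 bp away. The fifth, at 36.6-fold, lay between CG42758 and HGTX, a homeobox gene of the nervous system, on 3L. The other 5 ranged from 28.0-fold between pwn and CG12164 to 36.1-fold between Rgk2 and GEFmeso, with the peaks of CG4982, CG1648 and CG6431 between. The 28.0-fold summit lay 77 bp from pwn and 10512 bp upstream of the nearest TSS, that of CG12164. Of the 10, 6 lay upstream of the nearest TSS and 4 lay downstream of it.

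At the edges of the rule the values were ordinary for the class. The members just inside the distance limit lay 1005 bp upstream of nompC, a mechanosensory channel gene, 1007 bp upstream of CG42353 and CG42354, and 1010 bp from the TSS of CG42662. Their fold enrichments were 4.36, 4.29 and 4.36. The 3 intergenic peaks of replicate 2 alone just outside the limit lay 1000, 999 and 997 bp from a TSS, with folds of 6.49, 12.3 and 3.63. The members whose intervals came closest to a replicate 1 peak, near CG42749, CG34205 and Alp13, were separated from it by 122, 124 and 139 bp and had folds of 4.64, 3.96 and 3.28. The distal intergenic peaks with the smallest accepted overlap all shared more than 100 bp with replicate 1, so no peak sat near the 1 bp margin.

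Members were densest near TSSs, down to the limit of 1000 bp. The nearest TSS was a median of 3118 bp away, at 1000 to 2000 bp for 215 members, 2000 to 5000 bp for 226, 5000 to 10000 bp for 126 and farther for 89, of which 24 were over 20000 bp away. Sequence that could hold a member, outside genes and more than 1000 bp from every TSS, came to 33.6 Mb without the Y chromosome and held 19.5 members per Mb. That density was 47.1 per Mb at 1 to 2 kb from the nearest TSS, 28.0 at 2 to 3 kb, 23.3 at 3 to 5 kb, 17.6 at 5 to 10 kb, 13.0 at 10 to 20 kb and 3.02 beyond 20 kb. Thus the rate per Mb fell over every step of distance, although the limit at 1000 bp removed the closest peaks. Repeats and undetermined bases were not taken out of this sequence, and their part in the fall was not tested. With respect to the nearest TSS, 419 members (63.9%, 95% Wilson interval 60.1 to 67.5%) lay upstream and 237 lay downstream. The rule left out gene bodies, which lie downstream of their own TSS. The upstream share of eligible sequence was not measured, so these counts show no preference for either side.

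Short intervals between genes carried more members per base than long ones. An interval is the sequence between neighbouring genes or groups of overlapping genes. Intervals under 5 kb held 54.9 members per Mb of eligible sequence, those of 5 to 10 kb 32.9, those of 10 to 20 kb 19.3, those of 20 to 50 kb 17.3 and those over 50 kb 3.81. Between divergent genes, whose starts face each other, the density was 28.4 per Mb, against 19.1 between genes in tandem and 16.4 between convergent genes. Short intervals also lie closer to TSSs, and divergent ones have a TSS at both ends. Interval length, orientation and TSS distance therefore cannot be told apart in these figures. The part of repeats and undetermined bases, which stayed in the intervals, was not tested here either.

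**Figure D2:**
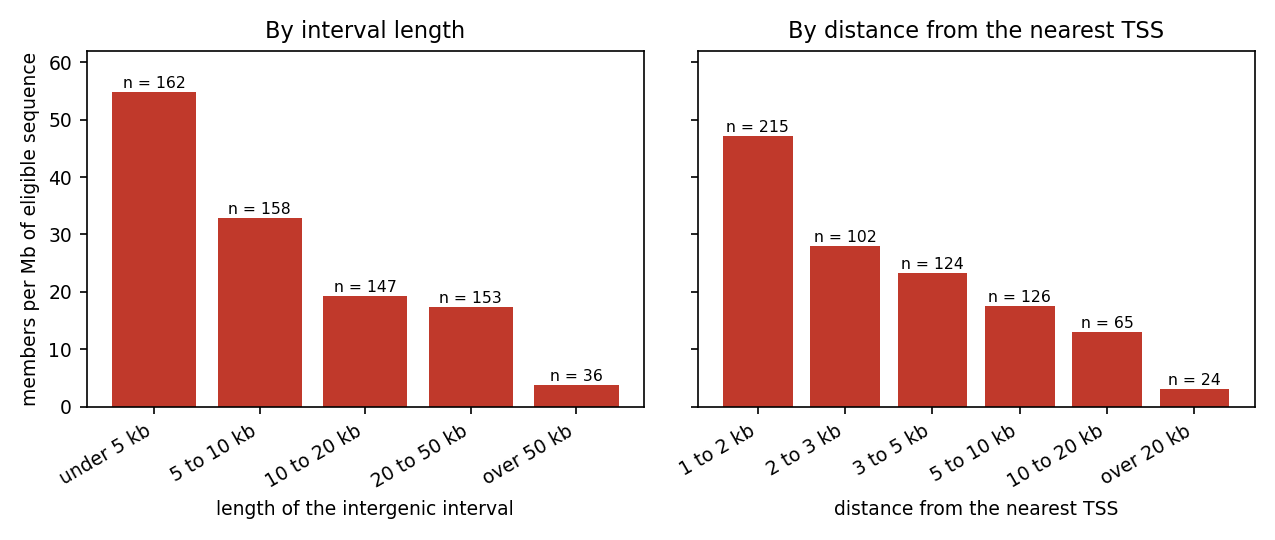
Members per Mb of eligible sequence (vertical axis), by length of the intergenic interval (left) and by distance from the nearest TSS (right), with the number of members above each bar. Density falls from 54.9 to 3.81 per Mb with interval length and from 47.1 to 3.02 per Mb with distance.

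The 6 arms with members ranged from 16.3 to 22.9 members per eligible Mb. Arm 3R held 161 members at 22.9 per eligible Mb, 2L 128 at 21.0, X 99 at 20.2, 4 held 4 at 18.4, 3L 151 at 17.8 and 2R 113 at 16.3. The Y chromosome held none, and the whole replicate 2 list held no peak there. The 3 members farthest from any TSS lay 298371 bp from DIP-lambda on 2R (fold 8.30), 109652 bp from CR14578 on 3L (4.92) and 95644 bp from the ribosomal RNA gene 2SrRNA:CR45864 on X (5.49). The summit of the second lay in an annotated transposable element, and the window of 100 bp on either side of the last was masked as repeat over 100% of its length. Such members were few. In all, 12 summits (1.83%) lay in annotated transposable elements, against 11.4% of eligible sequence, and 17 such windows (2.59%) were masked over 50% or more of their length, against 16.8% of windows of the same length tiled over the eligible sequence. How reads with several matches were treated is not given in the sources used here, and its part in these low shares was not tested.

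Many members had a neighbour of their own kind, but most had none close by. The nearest other member was a median of 16133 bp away, with quartiles of 2037 and 89541 bp. Another member lay within 1 kb for 118 members, within 10 kb for 288 (43.9%, 95% Wilson interval 40.2 to 47.7%) and within 50 kb for 441 (67.2%). For 261 of the 288 the neighbour was in the same interval. Any replicate 2 peak, promoters and introns included, lay within 10 kb of 530 members (80.8%), at a median of 2794 bp. A replicate 1 peak lay within 10 kb of 203 (30.9%).

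Same-class neighbours within 10 kb were more common in the larger classes. A peak of the same class lay within 10 kb for 59.0% of the 1542 intronic and 62.1% of the 3879 promoter peaks of replicate 2 alone, and for 13.0% of the 154 shared intergenic peaks. The median distance to the nearest peak of the same class did not follow class size, at 4941 bp for the intronic and 6386 bp for the larger promoter class. These shares depend on the number of peaks in each class as well as on their spacing, so they give no ranking of clustering. Peaks within 1 kb of each other may be pieces of 1 enriched stretch, which peak lists cannot tell apart from separate sites.

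Of the 4875 intervals with eligible sequence, 482 (9.89%) held a member. A lone member was found in 371 of them, 80 held 2, 16 held 3, 8 held 4 and 7 held 5 or more. The intervals with members had a median length of 8.84 kb, against 3.16 kb over all eligible intervals. Distal peaks shared with replicate 1 were in 43 of the 482 intervals (8.92%) and in 98 of the 4393 others (2.23%). At matched length, without the Y chromosome, the same order was seen: intervals with a member held a shared peak in 4.14% of cases against 1.57% under 5 kb, in 8.23% against 3.27% from 5 to 20 kb, and in 17.0% against 5.19% at 20 kb or more.

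The interval with most members, 9, lay between Su(z)2 and CG13323 on 2R (dm6, positions 13007912 to 13044694, 36.8 kb). Su(z)2 encodes a Polycomb group protein, one of the silencers of developmental genes. The folds there were 4.43, 6.61, 24.4, 4.67, 8.13, 5.29, 5.09, 5.13 and 5.98 from left to right, and no replicate 2 peak there was overlapped by replicate 1. The members formed a group of 3 in the first 7.84 kb after the end of Su(z)2 and a group of 6 from 24.5 kb to 35.5 kb. On the other side of Su(z)2, 2 members with folds of 14.6 and 6.47 lay between CG33798 and lncRNA:CR44339. Beyond those genes stands Psc, the paralogue of Su(z)2 and a subunit of Polycomb repressive complex PRC1, with 4 further members between it and CG13321 within 2.30 kb, at folds of 2.56, 10.1, 2.17 and 2.69. These neighbours were named after their values were seen.

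The interval upstream of foxo, the forkhead factor of insulin signalling, was the most crowded of the top intervals per base. It spans 12.3 kb on 3R (positions 14044607 to 14056944) up to the divergent tRNA:Ser-GCT-2-2 and held 7 members within 5.64 kb. Their folds were 5.19, 4.94, 13.8, 9.01, 3.02, 3.06 and 5.56. Nearer to foxo followed a 7.53-fold peak shared with replicate 1, 748 bp from the TSS, and a 14.1-fold promoter peak of replicate 2 alone at 37 bp. The members here thus form a row that leads up to the promoter peak.

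The interval between lncRNA:CR44603 and lncRNA:CR45695 on 2L (1626022 to 1646931, 20.9 kb) held 7 members and 2 distal peaks shared with replicate 1. The shared peaks, at 16.1-fold and 20.7-fold, exceeded every member there, whose folds ran from 2.72 to 11.6. The other 2 intervals were long. That between CG10651 and lncRNA:CR40341 (2L, 20134924 to 20248038, 113 kb) had 6 members of 4.08-fold to 18.2-fold around a shared peak of 86.2-fold. That between Pld, the phospholipase D gene, and lncRNA:CR46075 (2R, 6255267 to 6501031, 246 kb) had 6 members, 4 of them 11.3 to 15.5 kb from the end of Pld. The remaining members of that interval lay at its far end with a shared peak of 83.8-fold, and more than 200 kb between the groups held no peak.

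**Figure D3:**
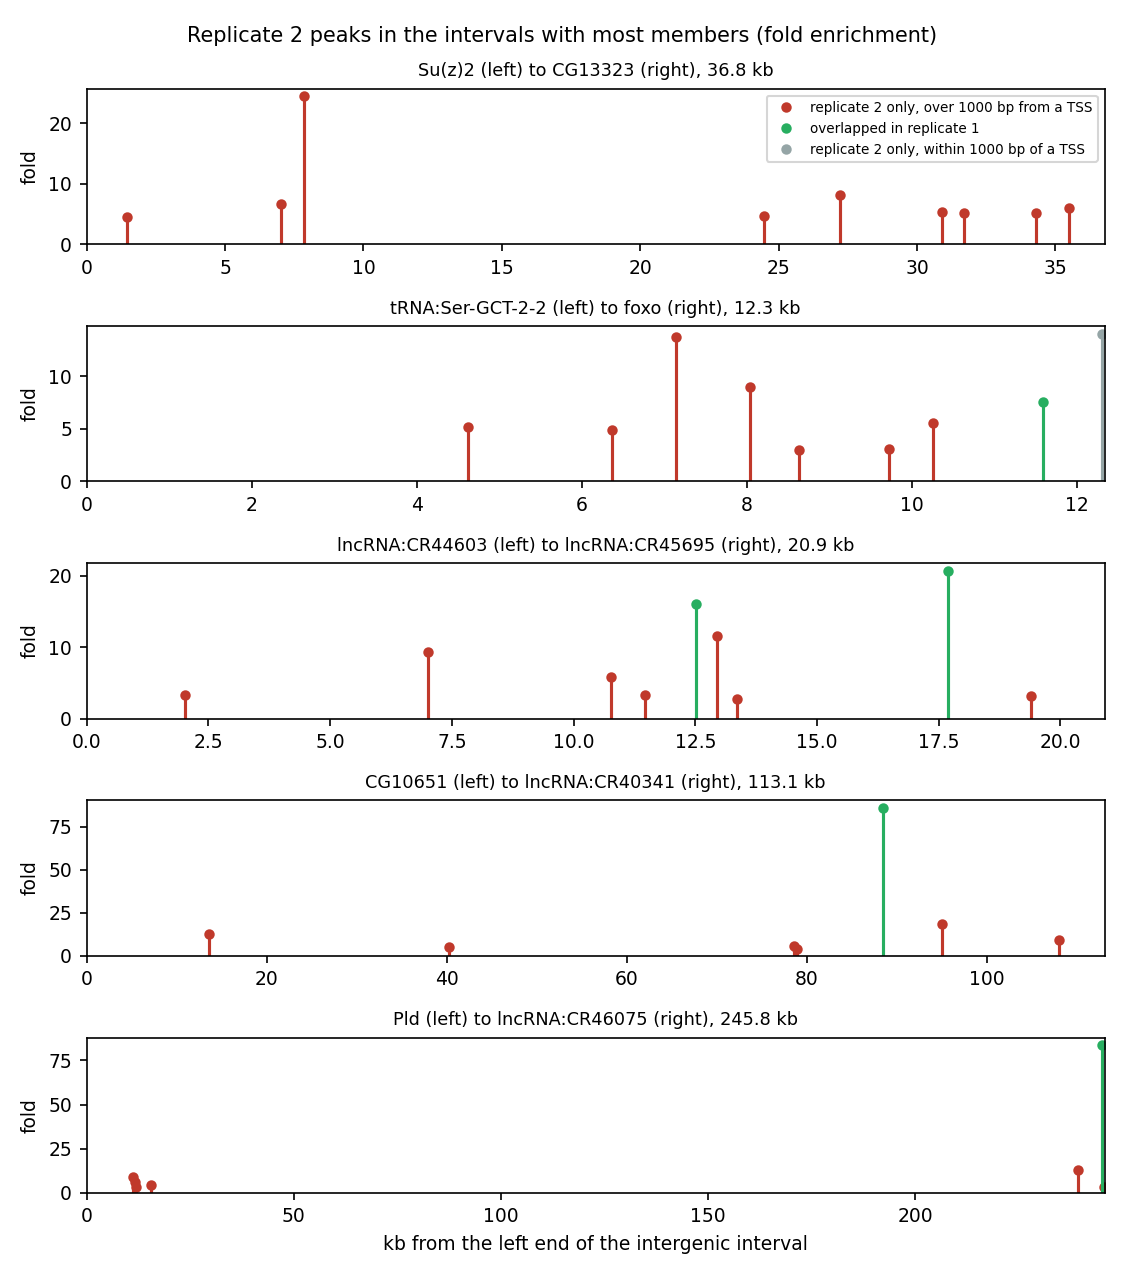
Fold enrichment of each replicate 2 peak (vertical axis) against kb from the left end of the interval (horizontal axis), for the 5 intervals with most members. Members (red) stand in groups, as near the right end of the foxo interval, and the peaks also called in replicate 1 (green) reach 86.2-fold beside lower members.

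Joining members no more than 10 kb apart gave 482 runs, of which 114 held 2 or more members, 32 held 3 or more and 7 held 5 or more. The 32 runs took in 124 members (18.9%). The longest by number were the 7 of the foxo interval, 7 within 8.65 kb around Rh5 on 2L, 7 within 17.4 kb between lncRNA:CR44603 and lncRNA:CR45695, and 6 within 11.0 kb before CG13323. Then 3 runs tied at 5 members: within 11.7 kb on X beside Atf3, CG32812 and DAAM, within 14.5 kb on 3R from Ptx1 to CG15548, and within 17.8 kb on 3L between CG5290 and lncRNA:CR43174. Rh5 encodes a rhodopsin of the larval and adult eye. Its run went from Hacd1 across Rh5 to lncRNA:CR44588, with folds between 4.39 and 12, and none of these peaks was overlapped in replicate 1. The run near Atf3, a bZIP transcription factor gene, and DAAM, a formin gene, held folds of 2.95 to 6.28 together with 2 peaks that replicate 1 also held.

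On the side of genes, 931 of the 7438 genes next to eligible sequence (12.5%) had a member in a flanking interval. Protein-coding genes made up 683 (73.4%) and ncRNA genes 226 (24.3%), against 80.5% and 15.9% of genes that flanked no member. At the nearest TSS the gene was protein-coding for 473 members (72.1%) and an ncRNA gene for 164 (25.0%), while ncRNA genes numbered 3289 of all 18277. Members flanking the same gene numbered 2 or more for 255 genes and 4 or more for 37. The 37 comprised 26 protein-coding genes, 10 ncRNA genes and 1 tRNA gene. Outside the 5 intervals already described, Rh5 had 7 members, and B-H2, CG32812, CG5290, Dr, en, lncRNA:CR43174 and tou had 5 each. The 5 of en and of tou were the same peaks, between these neighbours, and so were those of CG5290 and lncRNA:CR43174. Most of the 37 were on none of the 12 gene lists described next: 5 were listed, namely the homeobox genes B-H2, Dr, ems, en and exex, and 32 were not.

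The share of genes that flanked a member differed with how much eligible sequence a gene had beside it. Among genes with under 5 kb, 5.80% flanked a member, among those with 5 to 20 kb 20.1%, and among those with 20 kb or more 31.5%. The median over all 7438 genes was 2.32 kb. Gene lists are therefore described both whole and by these classes of length, with no test. Only the listed genes next to eligible sequence are counted.

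Segmentation genes, which divide the early embryo along its axis, flanked members more often than genes at large. Of the 28 listed genes next to eligible sequence, 18 (64.3%, 95% Wilson interval 45.8 to 79.3%) had a member, beside the 12.5% over all such genes. These 28 had a median of 15.7 kb of eligible sequence. None of the 3 with under 5 kb had one. With 5 to 20 kb, 9 of 14 had one (64.3%, against 20.1% of all genes of that class), and with 20 kb or more, 9 of 11 did (81.8%, against 31.5%). The homeodomain gene en led with 5 members, all of them between en and tou, and its intervals held no distal peak shared with replicate 1. The gap gene gt, the terminal gap gene hkb, the T-box gene mid, the pair-rule gene opa and the forkhead gene slp1 each had 2.

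The list of neural and other homeobox genes also stood above all genes. Members flanked 29 of its 60 genes next to eligible sequence (48.3%, 36.2 to 60.7%). These were 2 of 15 (13.3%) with under 5 kb, 13 of 27 (48.1%) with 5 to 20 kb and 14 of 18 (77.8%) with 20 kb or more. B-H2, a Bar-class gene of sensory organs, had 5, the head gap gene ems and the motor neuron gene exex had 4, and HGTX, Ptx1 and ap had 3. Hox genes, which set segment identity, had a member in 4 of 7 cases, for Dfd, Scr, lab and pb, with 1 each. By length these were 2 of 4 with under 5 kb and 2 of 3 with 5 to 20 kb. Of the dorsoventral patterning genes 6 of 14 had one (42.9%), with 5 for Dr and 2 each for bap and tin, the homeobox genes of visceral and heart muscle. By length they were 0 of 3 with under 5 kb, 4 of 9 with 5 to 20 kb and 2 of 2 with 20 kb or more. Single genes such as eve and tup stand on more than 1 of these lists. Neighbouring relatives shared their 2 members, which lay between tin and bap, between slp1 and slp2 and between bab1 and bab2, so the counts are not independent.

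Hormone-response genes had members in 7 of 17 cases (41.2%), with 3 beside Blimp-1, a repressor in the ecdysone timing network, and 2 beside Eip75B, a nuclear receptor gene. In order of length these were 1 of 8, 2 of 3 and 4 of 6. The genes kni and knrl, with 54.7 and 39.8 kb, are among the last 4. Both were also counted on the segmentation list, so the lists are not separate. Of the BTB factors, the family of Lola itself, 4 of 12 had one (33.3%): bab1, bab2 and psq had 2 and rib had 1, while by length it was 0 of 7, 2 of 3 and 2 of 2. The intervals of these lists are wide, at 13.8 to 60.9% for the BTB factors.

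The whole shares of the other lists stood near that of all genes. Members flanked 15 of 95 axon guidance and cell surface genes (15.8%), and the shares at matched length, 3.45% with under 5 kb, 18.9% with 5 to 20 kb and 24.1% with 20 kb or more, were below those of all genes. Toll-4 had 2 members in its flanks and the other 14 genes had 1, among them CadN, robo2 and 18w. Receptor and channel genes had 13 of 68 (19.1%), with 2 members each beside Rdl, Teh1, nAChRalpha7 and ppk24. Those with under 5 kb stood above all genes of that length, at 7 of 35 (20%, 95% Wilson interval 10.0 to 35.9%) against 5.80%, but 3 of 23 (13.0%) with 5 to 20 kb and 3 of 10 with 20 kb or more did not. Chemoreceptor and odorant-binding protein genes had 13 of 117 (11.1%), led by Gr93a with 3, and by length 5.97, 13.9 and 28.6%. Cuticle protein genes had 6 of 71 (8.45%), cytosolic ribosomal protein genes 3 of 32 (9.38%) and muscle contractile protein genes 2 of 20 (10%), which were Act88F and Act57B. By length, cuticle protein genes had 2 of 57 with under 5 kb and 4 of 14 with 5 to 20 kb, ribosomal protein genes 2 of 24, 1 of 3 and 0 of 5, and muscle genes 1 of 16, 1 of 1 and 0 of 3. The intervals of these 6 whole shares include 12.5%, as the plot of gene lists shows.

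**Figure D4:**
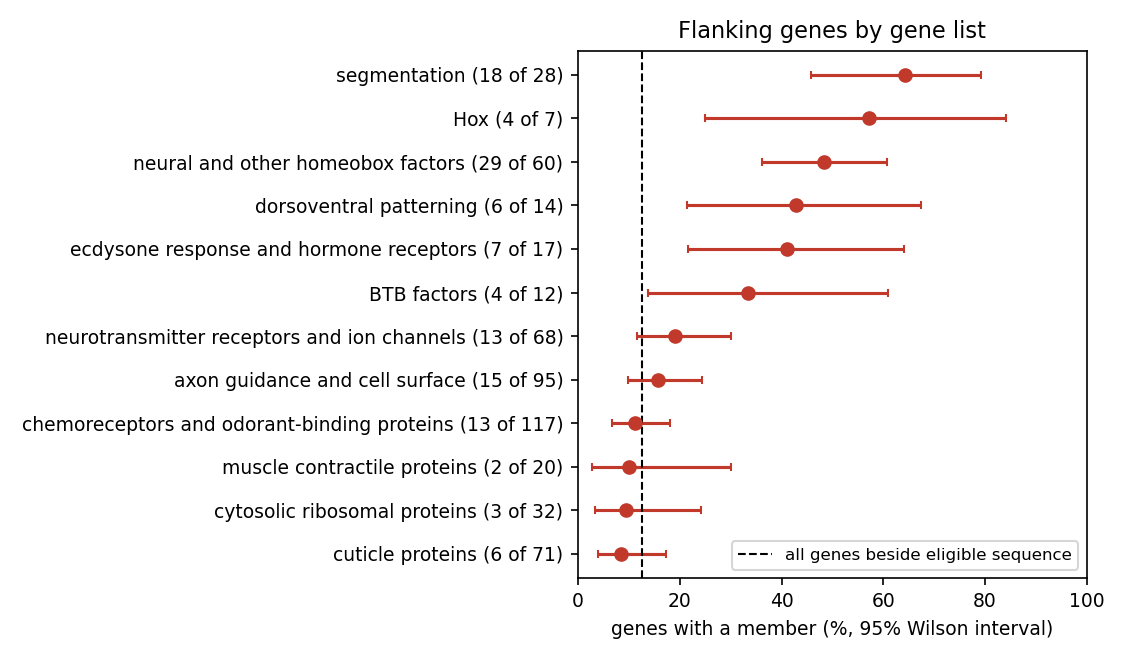
Share of each list's genes with a member in a flanking interval (horizontal axis, %, with 95% Wilson intervals), counted over the genes next to eligible sequence, and the share over all such genes as a dashed line at 12.5%. Segmentation genes stand at 64.3% and cuticle protein genes at 8.45%, and the amount of eligible sequence, which differs between lists, was not taken out here.

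Genes beside a member had a Lola-I peak at their own promoter somewhat more often than others. In replicate 2, 309 of the 931 genes (33.2%, 95% Wilson interval 30.2 to 36.3%) had a promoter peak, against 1794 of the 6507 genes that flanked none (27.6%, 26.5 to 28.7%) and 28.3% over all. In replicate 1, a separate library, 65 of the 931 (6.98%, 5.52 to 8.80%) had one, against 345 of 6507 (5.30%, 4.78 to 5.87%) and 5.51% over all. The difference in replicate 1 was small, the intervals overlap, and no test was made. For protein-coding genes of matched length, the replicate 2 shares were 51.8% against 37.0% with under 5 kb of eligible sequence, 36.5% against 22.5% with 5 to 20 kb, and 34.0% against 24.1% with 20 kb or more. Conversely, 291 members (44.4%) lay in intervals where neither flank had a promoter peak in replicate 2. The share over all eligible intervals was not measured. At the gene of the nearest TSS, 236 members (36.0%) had a promoter peak in replicate 2, beside 4636 of all 18277 genes (25.4%). The first share is over members, so a gene nearest to several counts more than once. The second is over all genes, and was 28.3% over those next to eligible sequence. Members and replicate 2 promoter peaks come from the same library, and what that adds to these shares was not tested.

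The sequence around the summit was not used in choosing the members, and 14 motifs were searched on both strands within 100 bp of the summit. These were the GAF word GAGAG, the repeat CACACA, the word AAAGCT and its neighbour AAGCTC. At promoters DREF binds the element TATCGATA (DRE), and GGTCACAC is the element known as Motif 1. Others were the Zelda site CAGGTAG, the E-box CAGCTG, the homeodomain site TAATTA and the site GATAAG bound by GATA factors. The rest were the Grainy head core ACCGGT, the site TGANTCA of AP-1, the Su(H) site GTGGGAA and the TATA box letters TATAAA. The last of the first 4 shares 5 letters with AAAGCT and can overlap it. Shares were compared with 3 classes of replicate 2 peak by Fisher's exact test, two-sided, with Benjamini-Hochberg adjustment over the 42 comparisons. Peaks of 1 library are not independent replicates, so the p-values measure counting over peaks and not variation between embryos.

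GAGAG was the most frequent motif and was held by 270 members (41.2%), against 21.0% of windows tiled over the eligible sequence. The intronic peaks of replicate 2 alone held it in 54.9%, an odds ratio for the members of 0.58 (95% interval 0.48 to 0.69, Fisher's exact test, adjusted p = 3.4e-08). CACACA likewise was rarer in members than in intronic peaks, at 27.6% against 39.1% (odds ratio 0.59, 0.49 to 0.73, Fisher's exact test, adjusted p = 1.5e-06). Neither differed past the threshold from the promoter class, at 37.6% for GAGAG and 23.5% for CACACA, but within 50 bp of the summit GAGAG did (odds ratio 1.27, Fisher's exact test, adjusted p = 0.038). In the tiled windows CACACA stood at 15.3%.

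AAAGCT set the members apart from the shared intergenic peaks. It was in 169 members (25.8%) and in 82.5% of the 154 shared peaks, an odds ratio of 0.07 (0.05 to 0.12, Fisher's exact test, adjusted p = 2.1e-37). The share in members lay above the 17.0% of promoter peaks of replicate 2 alone (odds ratio 1.69, 1.39 to 2.05, Fisher's exact test, adjusted p = 1.5e-06) and near the 24.0% of intronic peaks (odds ratio 1.10, 0.89 to 1.36, adjusted p = 0.71). Against the intronic peaks the odds ratio was 1.40 within 50 bp of the summit (Fisher's exact test, adjusted p = 0.03). It was 1.82 (Fisher's exact test, adjusted p = 1.3e-09) when replicate 1 was not used to choose members, so that the shared intergenic peaks joined them while the intronic class stayed as it was. Tiled windows held it in 12.7%. AAGCTC followed the same order, with 17.5% in members, 59.1% in shared intergenic, 11.3% in promoter and 17.1% in intronic peaks. Its odds ratio against intronic peaks likewise went from 1.03 to 1.66 (Fisher's exact test, adjusted p = 8.2e-06) with the shared peaks added to the members. The shared peaks also had higher fold enrichment, and AAAGCT was picked from shared peaks of these libraries, so its excess there is not independent evidence.

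The motifs of core promoters were scarcer than in promoter peaks. DRE was in 9 members (1.37%) and in 11.2% of promoter peaks (Fisher's exact test, adjusted p = 1.5e-19), and Motif 1, bound by M1BP, was in 4 (0.610%) and in 9.69% (adjusted p = 2.7e-20). Tiled windows held DRE in 0.430% and Motif 1 in 0.261%, and intronic peaks of replicate 2 alone in 0.519% and 0.195%. Against intronic peaks neither passed the threshold (Fisher's exact test, adjusted p = 0.17 and 0.41). Within 50 bp of the summit DRE did (odds ratio 7.11, Fisher's exact test, adjusted p = 0.038), where 6 of the 9 members had their nearest match. DRE did not pass at 35 to 45% GC content, in the higher-scoring 50% of the list or without replicate 1. The odds ratios there were 4.46, 3.68 and 2.40 (Fisher's exact test, adjusted p = 0.25, 0.41 and 0.2). E-box, GATA and TATA letters were rarer than at promoters too, at 10.2% against 17.1%, 8.54% against 12.5% and 10.7% against 14.9% (Fisher's exact test, adjusted p = 2.1e-05, 0.015 and 0.015). In tiled windows they stood at 6.88, 7.86 and 22.8%. The TATA difference from promoters passed under none of the 4 alternatives, with odds ratios of 0.67 to 0.95 (Fisher's exact test, adjusted p = 0.17 to 1) against 0.68. The E-box difference was lost in the higher-scoring 50% of the list (odds ratio 0.63, Fisher's exact test, adjusted p = 0.069), and the GATA difference in windows of 35 to 45% GC content (0.53, adjusted p = 0.082). TATA was rarer than in shared intergenic peaks as well, at 10.7% against 19.5% (Fisher's exact test, adjusted p = 0.015), but not within 50 bp of the summit, where its odds ratio was 1.35, nor at 35 to 45% GC content, where it was 0.54 (adjusted p = 0.25). Zelda, homeodomain, Grainy head, AP-1 and Su(H) motifs passed the threshold in no comparison, with 1.37, 4.73, 2.13, 3.35 and 4.12% of members. The homeodomain letters, made only of A and T, stood at 14.1% in tiled windows, whose median GC content was 41.3% against 48.3% in members.

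**Figure D5:**
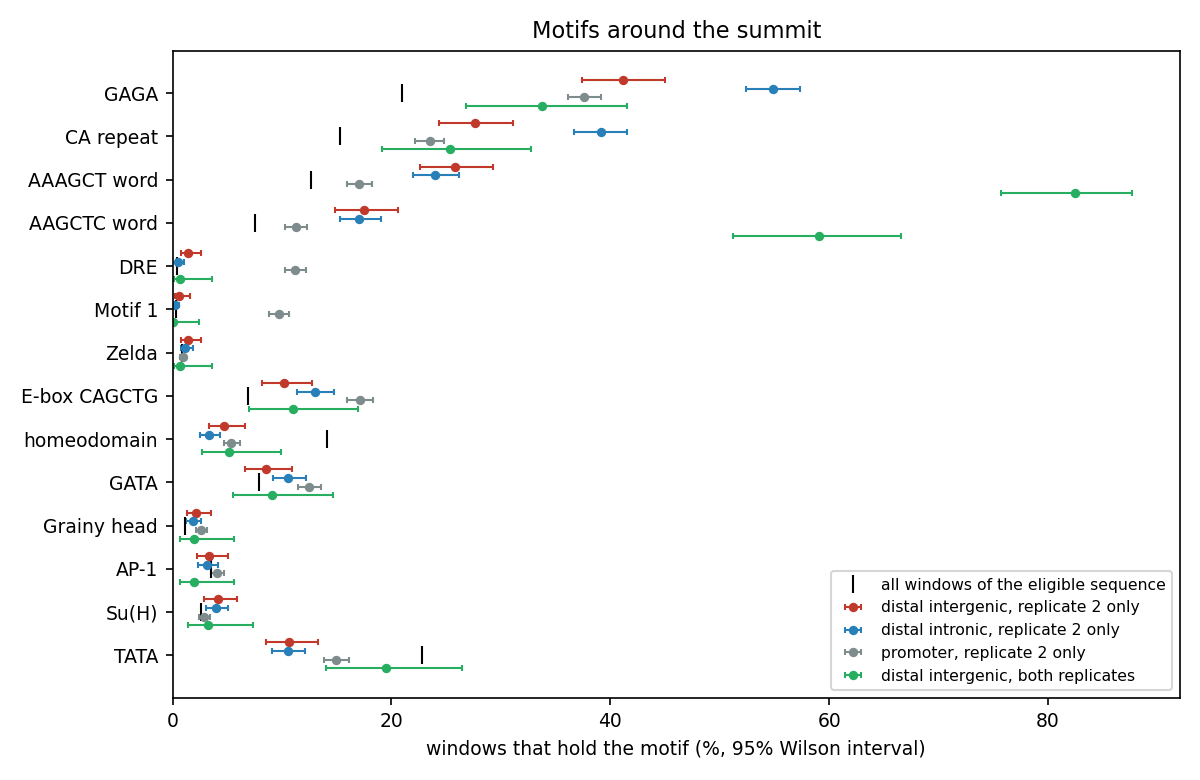
Share of windows of 100 bp on either side of the summit that hold each motif (horizontal axis, %, with 95% Wilson intervals) in the members and in 3 other classes of replicate 2 peak, with all windows tiled over the eligible sequence as black ticks. GAGAG stands at 41.2% in members and 54.9% in intronic peaks, and AAAGCT at 25.8% in members and 82.5% in shared intergenic peaks.

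GAGAG and AAAGCT had their nearest match close to the summit more often than any of the other motifs did. Of the members with GAGAG, 75.6% had the nearest match within 50 bp of the summit, and of those with AAAGCT 73.4% did. The stretch within 50 bp is about 50% of the window searched. Only the nearest match in a window counted, which favours motifs with several matches per window, and this was not taken out. The shares therefore do not show that any motif centres on the summit. DRE, AAGCTC, Grainy head and CACACA stood at 57.5 to 66.7%, and E-box, GATA, TATA, Motif 1 and Su(H) at 50 to 51.9%. Zelda, AP-1 and TAATTA were lower, at 33.3, 22.7 and 22.6%. Members with both GAGAG and AAAGCT numbered 62 (9.45%), 208 (31.7%) held GAGAG alone, 107 (16.3%) AAAGCT alone and 279 (42.5%) neither. The median fold enrichment was 6.34 with both, 5.71 with AAAGCT alone, 5.18 with GAGAG alone and 4.39 with neither, yet the 55.6-fold peak beside lncRNA:CR43437 was among those with neither.

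Ordered by fold enrichment and divided into 4 groups of 164, the members changed in word content and in spacing. AAAGCT was in 16.5, 22.6, 30.5 and 33.5% of the groups from lowest to highest. Another member lay within 10 kb for 49.4, 45.7, 44.5 and 36.0%. The strongest members therefore held AAAGCT more often and had a member nearby less often. GAGAG moved less, from 36.6% in the lowest to 45.7% in the highest.

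Among all 2080 6-mers, with reverse complements merged, 80 (3.85%) were in at least 5% of members and at least 2 times as frequent there as in tiled windows. The 5 with the largest ratio were GCGCGC at 6.55% against 1.49%, AGAGCG at 22.0% against 5.96%, AGAGAG at 24.8% against 7.05%, GCGAGA at 19.2% against 5.48% and GGCGCC at 7.93% against 2.34%. Of the 80, 61 were past the same limits in intronic peaks of replicate 2 alone, 32 at promoters and 21 in shared intergenic peaks, which had 107, 116 and 68 such words in all. Differences in GC content between peaks and tiled windows enter all these ratios. GATGGCG, searched after the sequences had been seen and not tested, was in 44 members (6.71%, 95% Wilson interval 5.03 to 8.88%), 4.35% of intronic, 3.15% of promoter and 12.3% of shared intergenic peaks, and in 2.00% of tiled windows. The 44 members had a median fold enrichment of 7.21, against 4.97 in the other 612, and they include those of Cyp318a1 and Act88F. The sequences seen included those of the members highest by fold enrichment, so this difference is not independent of how the word was found.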

How the data were processed

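Embryos were fixed, and chromatin was sheared, immunoprecipitated and sequenced, per the labels' protocols. The submitters' processing notes name CASAVA 1.8.2 and Bowtie 1.0.0. The peak caller, its control and its filters are not given in the sources used here. The authors deposited 1 narrowPeak-like list per replicate, without a header, so peaks were called per sample. In the deposited lists the score is the −log10 p-value times 10 without its decimals (checked on all 9674 replicate 2 peaks), the column of fold enrichment holds ratios to background as the caller estimated it, and −log10 p-values and −log10 q-values come from the same library. The summit offset is deposited in bp. Values were compared within replicate 2 only, and depth is unknown.

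Chromosome names and peak ends fit dm6. The annotation was Ensembl release 115 (BDGP 6.54), without transposable elements but with 481 unnamed RNA entries, and sequence from RefSeq Release 6. Replicates overlapped when they shared at least 1 bp. Analyses used Python 3.11.15, NumPy 2.4.6, SciPy 1.17.1, pandas 2.3.3, statsmodels 0.14.6 and matplotlib 3.10.9, and functions were tested on simulated data. Fisher's exact tests compared motif shares, with a threshold of 0.05 after adjustment. Wilson intervals cover counting error only and treat peaks as independent.

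Members, the 12 gene lists and the motifs were chosen with earlier results of these data known, and the bins of length, distance, orientation and fold enrichment with the data in view. Named were the 10 members highest by fold enrichment, the 3 at each edge of the rule, the 3 farthest from a TSS, the 5 intervals and 5 runs with most members, up to 6 genes per list and 10 genes with 4 or more members, all motifs and the 5 leading 6-mers. Other names were chosen after their values were seen. Alternatives varied the TSS distance, annotation, overlap rule, score, neighbour distance, GC content and window.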

Additional observations from a re-analysis of the deposited data

Results flagged for a closer look

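Replicate 2 had 9 peaks on sequences outside the 7 chromosome arms, which the rule did not cover. Of these, 6 were overlapped by no replicate 1 peak, with fold enrichments of 2.48 to 11.4. On the arms, 84.8% of replicate 2 peaks had no replicate 1 partner. The flag is set above 3, the limit that a count of 0 allows. Off-arm peaks need not number 0, so the flag does not show that 6 is unusual. They were flagged as peaks that no comparison used.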

How the results depend on the processing

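The number of members stayed within 1.5 times of 656 under the other TSS distances, annotations, summit and overlap rules tried, and fell to 275 in the higher-scoring 50% of the list. The share with a member within 10 kb, 43.9%, was 34.6% within 5 kb, 52.9% within 20 kb, 80.8% with all replicate 2 peaks as neighbours and 21.1% in the higher-scoring 50%. Flanking genes numbered 518 when only the gene of the nearest TSS counted and 473 in the higher-scoring 50%. Motifs more frequent in members than in intronic peaks numbered 2 within 50 bp of the summit (AAAGCT and DRE) and 2 without replicate 1 (AAAGCT and AAGCTC), against 0. Motifs less frequent than at promoters numbered 3 with GC content of 35 to 45% (without GATA and TATA) and 3 in the higher-scoring 50% (without E-box and TATA), against 5. In the higher-scoring 50%, 1 motif, GAGAG, was more frequent than in shared intergenic peaks, against 0. The TATA odds ratio against shared intergenic peaks turned from 0.49 to 1.35 within 50 bp of the summit (Fisher's exact test, adjusted p = 0.92). The cause was not tested. No odds ratio could be given for Motif 1 against shared intergenic peaks, none of which held it. Leaving out the unnamed RNA entries, chosen after seeing the data, gave 657 members. Without replicate 2 no member exists. No paired analysis was possible because all members come from 1 library. The unknown depth limits what absence from replicate 1 means.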
